A study of Mus musculus with 12 samples.

Results

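The genes described here are 39 genes of mature fast skeletal muscle, chosen by name as components of the fast sarcomere, of calcium handling and of muscle energy supply, and measured in 12 healing skin wounds of diabetic mice. All 39 were among the 54232 genes listed in the count files, and none had fewer than 15 counts summed over the libraries. A total of 38 were among the 18618 genes tested. The exception was Tnnc2, fast troponin C, which had 57 counts in all. The lowest count of any tested member in any library was 107 (Ampd1), so the filter on low counts did not select members by group.

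Every library came from 1 dorsal wound of a male C57BLKS/J mouse homozygous for the db allele of the leptin receptor gene (Lepr db/db), aged 12.5 weeks per the labels. Wounds were made with a 6 mm punch through the full thickness of the skin and collected on day 10. The 5 TD wounds were covered with Tegaderm, a transparent film dressing, alone. The 4 Strain wounds were under a patch made to strain the wound by about 30%. The 3 No Strain wounds were under a patch that applied none. The genotype, the strain of mouse, the sex and the wound were common to all 3 groups, and no group was unwounded or non-diabetic. Whether 1 mouse could give several wounds is not recorded in the labels, so the p-values measure the spread between these samples. Replicate numbers follow the order of deposit and pair nothing. Each library held 20354677 to 25059371 counts, at which 3 counts correspond to 0.120 to 0.147 CPM (counts per scaled library total). Skin markers were present in all groups, with Krt14 at 2629 ± 482 CPM in TD, 4448 ± 1761 CPM in Strain and 3560 ± 1395 CPM in No Strain.

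Skeletal muscle fibres shorten when myosin thick filaments pull on actin thin filaments inside sarcomeres, which are joined end to end at Z-discs. Contraction is started by calcium released from the sarcoplasmic reticulum at the triad and is ended by a calcium pump. Fast fibres carry their own forms of myosin, troponin and calcium pump and rely heavily on glycogen and on creatine phosphate. In mice a thin sheet of skeletal muscle, the panniculus carnosus, lies beneath the skin of the back and is cut by a full-thickness wound.

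Promoter sequences show what regulatory letters the members have in common. RefSeq (GRCm38.p6) gave 250 bases upstream of the start site for 28 of the 39 members, in 32 windows. Each window was searched on both strands for the E-box CANNTG (read by myogenic bHLH factors), the MEF2 motif, the CArG box (read by serum response factor), the MCAT box CATTCC (read by TEAD factors) and TATAAA, and matches were allowed to overlap. An E-box was present in 78.1% of the member windows and in 66.2% of all 32851 windows in the table. The MEF2 motif was present in 21.9% of member windows (7 of 32) against 2.92% of all windows, and the CArG box in 12.5% (4 of 32) against 1.47%. The 4 windows with a CArG box belonged to 3 genes, because overlapping windows of Ldb3 held the same box. The MCAT box was present in 21.9% against 12.6%, and TATAAA in 12.5% against 12.4%. These shares describe letters only, since a match is not evidence of a bound site. No match was found for any of the 5 motifs in the windows of Myh2, Ryr1 and Smpx. The sequences are those of Acta1, which had the highest length-scaled level, Myh4, whose order of libraries differed from the other members, Pgam2, which had the smallest p in both comparisons with TD, and Xirp2, whose level in Strain 3 exceeded every TD library. Capitals mark every match to any of the 5 motifs.
Acta1, chr8:123894776-123895025, minus strand: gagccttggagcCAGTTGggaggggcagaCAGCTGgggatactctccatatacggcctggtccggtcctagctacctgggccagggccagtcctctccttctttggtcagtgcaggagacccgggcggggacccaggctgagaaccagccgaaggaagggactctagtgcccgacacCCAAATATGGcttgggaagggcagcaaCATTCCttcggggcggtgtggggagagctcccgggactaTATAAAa
Myh4, chr11:67237562-67237811, plus strand: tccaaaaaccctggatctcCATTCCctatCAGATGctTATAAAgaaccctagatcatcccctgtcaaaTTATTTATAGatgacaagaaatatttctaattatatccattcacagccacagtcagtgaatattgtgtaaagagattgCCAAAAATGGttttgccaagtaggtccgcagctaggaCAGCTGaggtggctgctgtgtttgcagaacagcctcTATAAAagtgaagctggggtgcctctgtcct
Pgam2, chr11:5803797-5804046, minus strand: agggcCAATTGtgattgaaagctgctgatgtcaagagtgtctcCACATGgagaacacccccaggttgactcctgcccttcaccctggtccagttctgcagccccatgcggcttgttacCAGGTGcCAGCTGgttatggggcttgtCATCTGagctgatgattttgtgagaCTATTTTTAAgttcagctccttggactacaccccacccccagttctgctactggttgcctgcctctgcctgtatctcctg
Xirp2, chr2:67445752-67446001, plus strand: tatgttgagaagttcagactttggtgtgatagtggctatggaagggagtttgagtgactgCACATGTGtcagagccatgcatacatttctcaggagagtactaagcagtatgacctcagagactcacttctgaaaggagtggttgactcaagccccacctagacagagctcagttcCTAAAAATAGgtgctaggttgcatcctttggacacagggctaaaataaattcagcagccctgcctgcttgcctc
The Acta1 window held 2 E-boxes, 1 CArG box, 1 MCAT box and 1 TATAAA. The Myh4 window held all 5 motifs, with 3 matches to TATAAA. The Pgam2 window held 5 E-boxes and 1 MEF2 motif, and the Xirp2 window held 2 E-boxes and 1 MEF2 motif.

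Muscle transcripts of this group were lower under the Strain patch than under film alone, and the mean of the No Strain wounds lay between. The summed level of the 39 genes in CPM (counts scaled to a common library total with TMM factors) was 16894, 14857, 24331, 18590 and 9622 in TD 1 to 5. It was 4778, 5635, 9621 and 6243 in Strain 1 to 4, and 9782, 7400 and 15697 in No Strain 1 to 3. The means were 16859 ± 5367 (SD, n = 5), 6569 ± 2122 (SD, n = 4) and 10960 ± 4272 (SD, n = 3). Strain 1, 2 and 4 lay below every other library, whereas TD 5 and Strain 3 were nearly level. As a share of all counts in the library, the genes took up 0.963% to 2.51% of each TD library, 0.472% to 0.986% of each Strain library and 0.730% to 1.5% of each No Strain library. No p is given for these sums, because the genes were chosen with earlier results known. In bulk tissue, fewer muscle fibres and less RNA per fibre cannot be told apart.

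**Figure D1:**
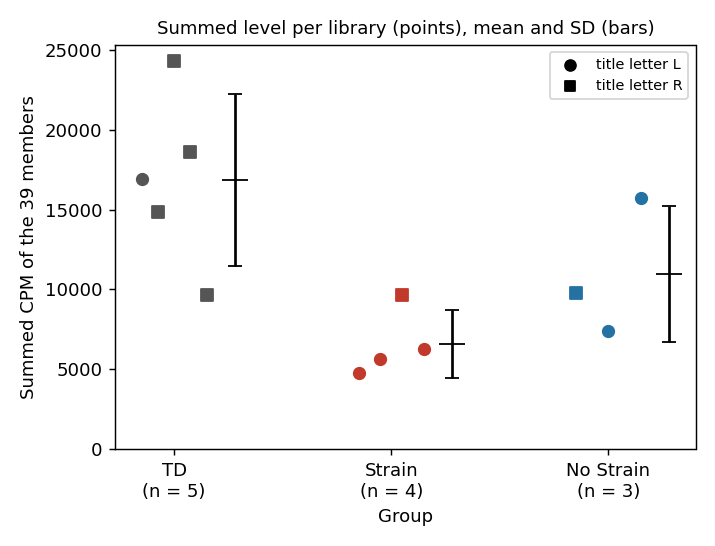
Summed level of the 39 genes in each library (vertical axis, TMM-scaled CPM) by dressing group, with the group mean and SD as bars and the letter in the sample title as the marker shape. The Strain libraries sit between 4778 and 9621, and the TD libraries between 9622 and 24331.

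The libraries kept a similar order from gene to gene. TD 3 was the highest of the 12 libraries for 30 of the 38 tested members, No Strain 3 for 6, and TD 2 and TD 4 for 1 each. Strain 1 was the lowest for 19 members, Strain 2 for 10, Strain 4 for 5, No Strain 2 for 3 and No Strain 3 for 1. Within groups, TD 5 was the lowest TD library for 37 members, Strain 3 the highest Strain library for 30, and No Strain 3 the highest No Strain library for 36. The highest library exceeded the lowest by 3.47-fold (Myl1) to 16.4-fold (Myh2), with a median of 5.49-fold. Each sample title ends in L or R, and the labels do not explain these letters. Among the libraries marked L, the summed level was 16894 CPM in 1 TD wound, 5552 ± 736 CPM (SD, n = 3) in Strain, and 7400 and 15697 CPM in No Strain. Among those marked R it was 9622 to 24331 CPM in 4 TD wounds, 9621 CPM in Strain 3 and 9782 CPM in No Strain 1.

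**Figure D2:**
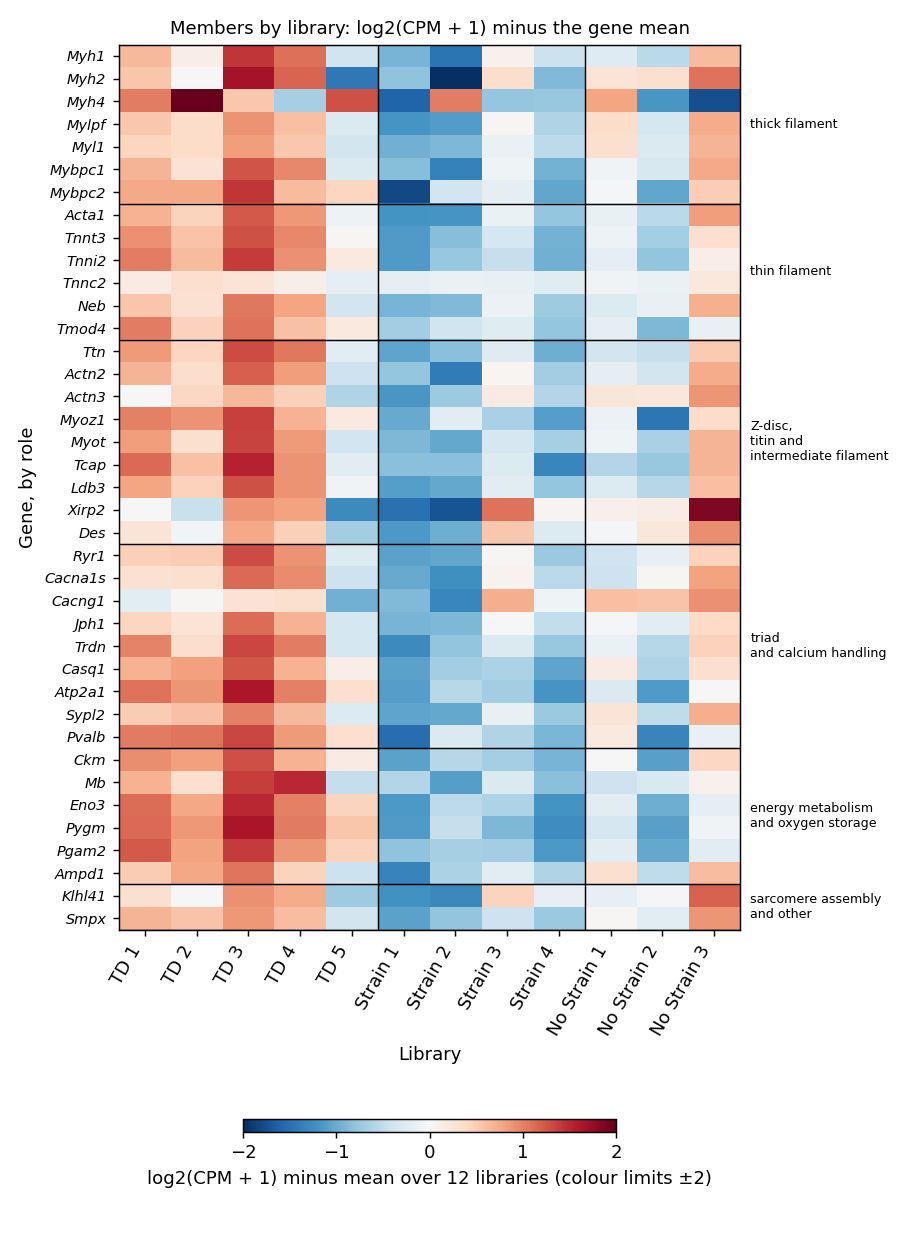
Level of each of the 39 genes (rows, grouped by role) in each of the 12 libraries (columns), as log2(CPM + 1) minus the gene's mean over the libraries, with colours limited at ±2. TD 3 is the highest column for 30 of the 38 tested genes, and Strain 1 the lowest for 19; Myh4 has a different order.

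Strain against TD compares the strain patch with the film dressing alone. A total of 29 of the 38 tested members fell in Strain at an adjusted p under 0.05 in edgeR's quasi-likelihood fit, and none rose. These are 76.3% of the members, where 6.41% of all genes tested were called lower and 6.2% higher. All 38 estimates were below 0. Their median log2 fold change was −1.39, with a range from −2.0 to −0.14, beside a median of 0.02 over all genes tested. For 17 members (44.7%) every Strain library lay below every TD library, a separation seen for 7.15% of all genes, and no member had the opposite order, which 7.47% of all genes had. With TD 5 set aside, every Strain library lay below TD 1 to 4 for 31 members. TD 5 was the lowest TD library for 37 members, so leaving it out raises the count. The share of all genes with that order was not computed, so whether 31 is unusual is not known. The count of calls depended on single libraries: it was 12 without Strain 2, 16 without Strain 4, 17 without TD 3, 18 without Strain 1 and 18 without TD 4, and 32 without Strain 3. It was 13 with no filter on low counts and 13 with the title letter as a covariate. Calls over all genes were fewer too: 2349 in the main fit, 882 without Strain 2 and 1860 without Strain 4. They were 1301 without TD 3, 1656 without Strain 1, 1274 without TD 4, 1527 with no filter and 798 with the title letter. The drop in member calls was therefore not limited to the members. A core of 11 members passed under all 19 alternatives, namely Tnnt3, Tnni2, Tmod4, Ttn, Casq1, Atp2a1, Pvalb, Ckm, Eno3, Pygm and Pgam2.

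No Strain against TD compares the patch without strain with the film dressing. In No Strain 7 of the 38 members fell, which is 18.4% where 8.4% of all genes tested were called lower, and none rose, where 9.35% were called higher. These were Tnni2, Tmod4, Atp2a1, Pvalb, Eno3, Pygm and Pgam2, and all 7 were also called lower in Strain. Both comparisons use the same TD libraries. The median log2 fold change of the members was −0.68, with a range from −1.53 to 0.77, beside 0.00 over all genes. It was −0.45 without TD 3 and −1.02 without No Strain 3. Estimates were below 0 for 33 members, and above 0 for Actn3, Xirp2, Des, Cacng1 and Klhl41. Every No Strain library lay below every TD library for 7 members (18.4%, against 12.5% of all genes). The count of calls was 12 with DESeq2, which took in 39 members, 11 with limma-voom with quality weights and 12 without TD 5. Calls over all genes were 3305 in the main fit, 4228 with DESeq2, 3288 with limma-voom and 2907 without TD 5. Tmod4, Atp2a1, Eno3, Pygm and Pgam2 passed under all 19 alternatives, whereas Tnni2 was lost in 3 and Pvalb in 8.

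Strain against No Strain holds the patch constant. No member was called in either direction, where 0% of all genes tested were called. At an unadjusted p under 0.05, 12 of the 38 members were lower in Strain, beside 5.61% of all genes in either direction. DESeq2 called 0 members and 21 genes in all. Estimates were below 0 for 37 of 38 members, with a median of −0.73 beside 0.01 over all genes. The median was −0.38 without No Strain 3 and −0.97 without Strain 3. Every Strain library lay below every No Strain library for Actn3, Casq1 and Smpx (7.89% of members, against 2.77% of all genes), and no member had the opposite order, against 2.85% of all genes. A p that misses the threshold does not show that the patches act alike: Acta1, for example, had an estimate of −0.92 with an SE of 0.381.

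**Figure D3:**
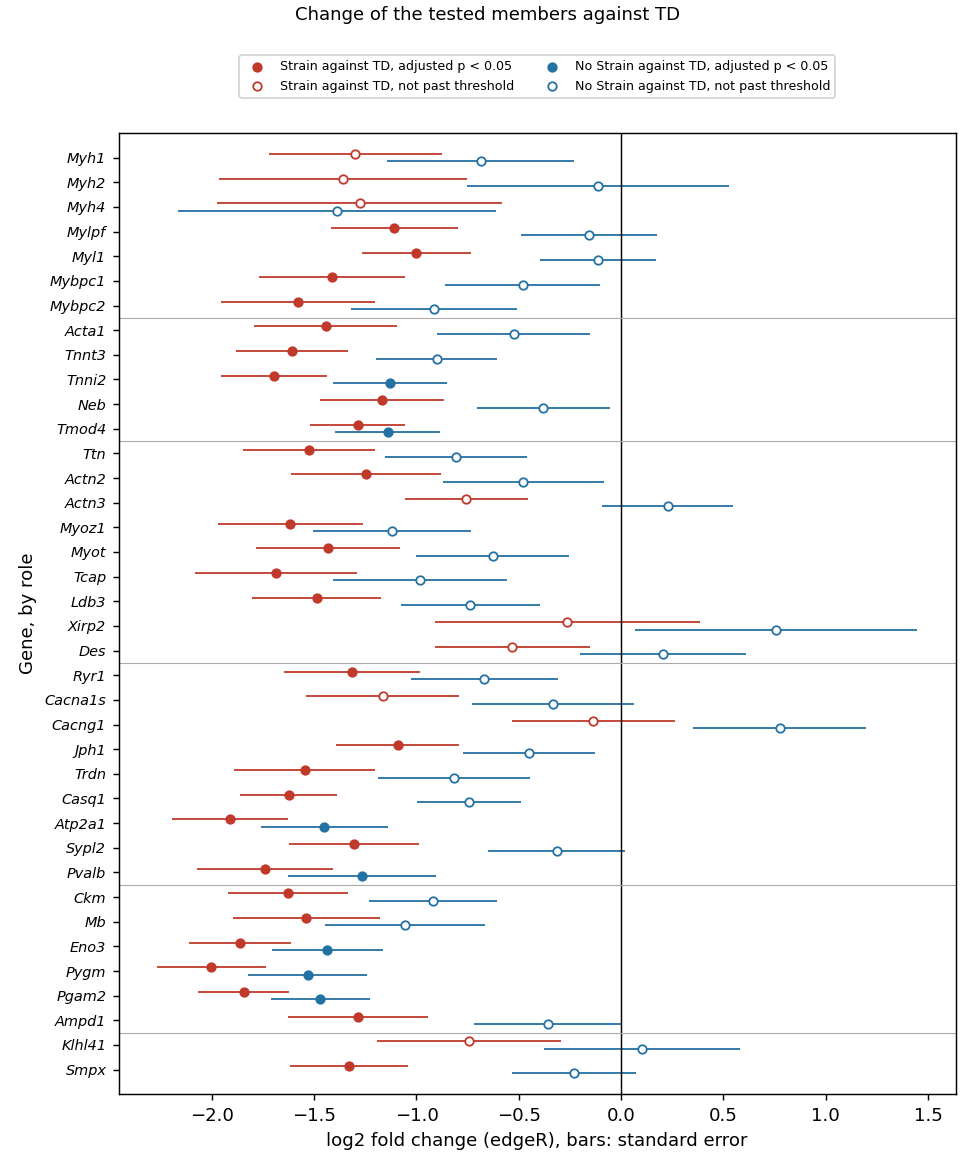
Log2 fold change of the 38 tested genes, grouped by role, in Strain (red) and No Strain (blue) against TD, with standard errors from edgeR's fit as bars. Filled points passed an adjusted p of 0.05: 29 genes in Strain and 7 in No Strain, all with negative values.

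Thick filament genes were lower in Strain for 4 of 7 members and were not called in No Strain, with median log2 fold changes of −1.30 and −0.48. Mylpf (ENSMUSG00000030672, chr7:127208890-127214298, plus strand) encodes the fast regulatory light chain. Its level was 555, 494, 714, 579 and 314 CPM in TD 1 to 5, 169, 176, 388 and 253 CPM in Strain 1 to 4, and 493, 299 and 639 CPM in No Strain 1 to 3. Only Strain 3 reached the range of the TD libraries, and No Strain overlapped TD. Mylpf fell in Strain (531 ± 146 to 247 ± 102 CPM; log2 fold change −1.11, SE 0.311, adjusted p = 0.0399) and its estimate in No Strain was −0.16 (adjusted p = 0.783). The other called members were Myl1, the fast essential light chain (−1.0, adjusted p = 0.0332), and 2 myosin-binding proteins. These were Mybpc1, which is named as the slow type although listed here (−1.41, adjusted p = 0.028), and Mybpc2, the fast type (−1.58, adjusted p = 0.0235).

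None of the 3 adult fast heavy chains, which form the motor itself, passed the test. Myh1 (ENSMUSG00000056328, chr11:67200052-67224575, plus strand), the IIx chain, measured 2355, 1644, 4058, 3209 and 1138 CPM in TD, 787, 544, 1591 and 1109 CPM in Strain, and 1251, 1036 and 2336 CPM in No Strain. TD 5 fell among the Strain libraries. The Strain estimate was −1.30 (SE 0.422, adjusted p = 0.0646), and Myh1 passed the threshold in 3 of the 19 alternatives. Myh4 (chr11:67238029-67260446, plus strand), the IIb chain, measured 760, 1582, 543, 236 and 913 CPM in TD, 123, 767, 220 and 221 CPM in Strain, and 646, 168 and 110 CPM in No Strain. Strain 2 stood with the TD libraries and TD 4 with the Strain libraries. Its estimates were −1.28 (SE 0.697, adjusted p = 0.247) in Strain and −1.39 (SE 0.777, adjusted p = 0.238) in No Strain. For Myh2, the IIa chain, they were −1.36 (adjusted p = 0.16) and −0.11 (adjusted p = 0.925).

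Per kilobase of exon, Myh1 was the most abundant adult fast heavy chain in 10 of the 12 libraries. Its share of the 3 was 67.6%, 46.4%, 76.0%, 81.1% and 52.1% in TD 1 to 5, 75.4%, 38.96%, 75.6% and 75.8% in Strain 1 to 4, and 56.8%, 69.4% and 79.9% in No Strain 1 to 3. Myh4 led in TD 2 (47.2%) and Strain 2 (58.0%) and reached 44.2% in TD 5 and 31.0% in No Strain 1. Its share was 3.99% to 23.0% in the other 8 libraries. Myh2 made up 3.09% to 18.8%. The ranges of the 3 groups overlapped for each chain.

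**Figure D4:**
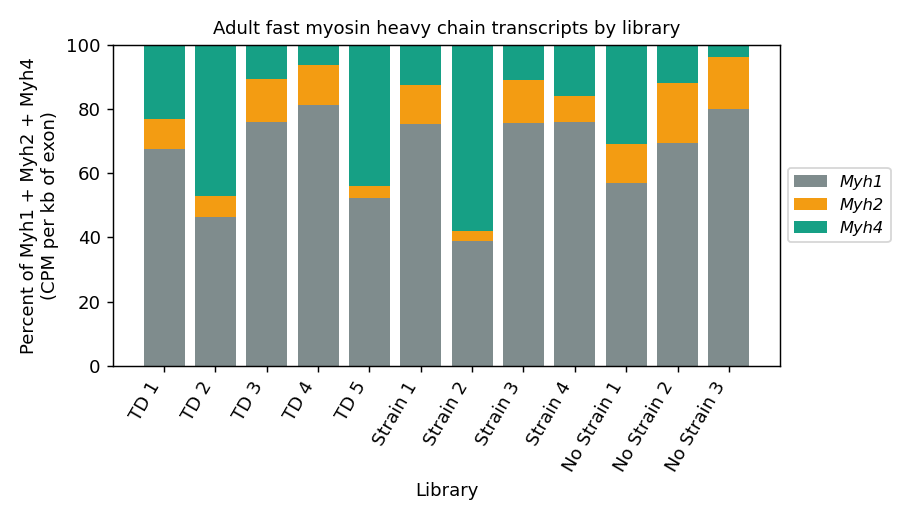
Share of Myh1, Myh2 and Myh4 in their sum (vertical axis, percent, from CPM per kilobase of exon) in each of the 12 libraries. Myh4 is the largest part in TD 2 (47.2%) and Strain 2 (58.0%), and Myh1 is the largest in the other 10.

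All 5 tested thin filament genes fell in Strain and 2 of the 5 fell in No Strain, with medians of −1.44 and −0.90. Acta1 (ENSMUSG00000031972, chr8:123891769-123894751, minus strand) encodes skeletal alpha-actin. Its level was 3031, 2550, 4360, 3415 and 1733 CPM in TD, 812, 827, 1705 and 1097 CPM in Strain, and 1686, 1283 and 3322 CPM in No Strain. The Strain values all lay below TD, the closest pair being Strain 3 and TD 5. Acta1 fell from 3018 ± 979 CPM to 1110 ± 418 CPM in Strain (log2 fold change −1.44, SE 0.350, adjusted p = 0.0246), and was 2097 ± 1080 CPM in No Strain (−0.52, adjusted p = 0.356).

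Tnnt3 (ENSMUSG00000061723, chr7:142498836-142516009, plus strand), fast troponin T, anchors the calcium switch to tropomyosin. It measured 1012, 800, 1302, 1040 and 546 CPM in TD, 243, 295, 418 and 277 CPM in Strain, and 497, 336 and 677 CPM in No Strain. Strain did not overlap TD, and No Strain overlapped it only through No Strain 3 and TD 5. The log2 fold change was −1.61 in Strain (SE 0.275, adjusted p = 0.00791) and −0.90 in No Strain (SE 0.296, adjusted p = 0.0563). Tnni2, fast troponin I, fell in both, by 1.70 (adjusted p = 0.00539) and by 1.13 (adjusted p = 0.02) on the log2 scale. Tmod4, which caps the filament, fell by 1.29 (adjusted p = 0.00914) and by 1.14 (adjusted p = 0.0132). Neb, the filament's molecular ruler, fell in Strain by 1.17 (adjusted p = 0.0308).

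Tnnc2 was nearly absent from the counts, unlike its troponin partners. It had 8, 12, 11, 7 and 1 counts in TD, 1, 2, 2 and 0 counts in Strain, and 3, 2 and 8 counts in No Strain. Of its 800 annotated exon bases, 592 (74%) also lie in exons of Ube2c on the opposite strand. The strand setting of the counting is not given in the sources used here, so the part this overlap plays was not tested. No other member shared over 27.6% of its exon bases with any single such gene (Mb, with Gm49540), followed by Atp2a1 (21.9%, with Rabep2), Cacna1s (19.98%) and Ckm (15.5%). Mb also overlapped Apol6, by 4.29%.

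Z-disc, titin and intermediate filament genes held both called and uncalled members, with 6 of 9 called lower in Strain and none in No Strain. Those that fell in Strain were the elastic giant Ttn (−1.53, adjusted p = 0.0151), its cap Tcap (−1.69, adjusted p = 0.0219), the actin cross-linker Actn2 (−1.25, adjusted p = 0.047), and the Z-disc scaffold proteins Myoz1 (−1.62, adjusted p = 0.0171), Myot (−1.43, adjusted p = 0.0256) and Ldb3 (−1.49, adjusted p = 0.0155). Actn3 (ENSMUSG00000006457, chr19:4861216-4877909, minus strand), the fast alpha-actinin, measured 232, 306, 364, 321 and 151 CPM in TD, 102, 138, 258 and 153 CPM in Strain, and 272, 269 and 424 CPM in No Strain. Here the No Strain libraries lay within or above the TD range. Its estimates were −0.76 in Strain (SE 0.302, adjusted p = 0.12) and 0.23 in No Strain (SE 0.321, adjusted p = 0.662). Against No Strain it was lower in all 4 Strain libraries (−0.98, SE 0.336, adjusted p = 0.872).

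Des (ENSMUSG00000026208, chr1:75360329-75368579, plus strand) encodes desmin, the intermediate filament that links Z-discs and that smooth muscle also makes. It measured 622, 503, 878, 726 and 321 CPM in TD, 235, 265, 757 and 429 CPM in Strain, and 512, 608 and 990 CPM in No Strain. The groups overlapped, and the estimates were −0.53 (SE 0.379, adjusted p = 0.379) and 0.21 (SE 0.406, adjusted p = 0.766). Xirp2, an actin-binding protein of Z-discs and muscle attachment sites, measured 240, 178, 447, 424 and 99.5 CPM in TD, 85.4, 72.6, 517 and 251 CPM in Strain, and 260, 268 and 883 CPM in No Strain. Strain 3 exceeded every TD library. The Strain estimate of −0.26 (SE 0.647, adjusted p = 0.828) turned to 0.014 without Strain 1 and 0.037 without Strain 2, and was −1.03 without Strain 3.

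Genes of the triad and of calcium handling were called lower for 7 of 9 members in Strain and for 2 of 9 in No Strain. Atp2a1 (ENSMUSG00000030730, chr7:126445858-126463108, minus strand) encodes SERCA1, the calcium pump of fast fibres. It measured 1537, 1338, 2224, 1459 and 912 CPM in TD, 337, 489, 444 and 318 CPM in Strain, and 591, 327 and 721 CPM in No Strain. Both patch groups lay wholly below TD. Means were 1494 ± 474, 397 ± 82.9 and 546 ± 201 CPM, giving log2 fold changes of −1.91 (SE 0.285, adjusted p = 0.00528) in Strain and −1.45 (SE 0.311, adjusted p = 0.0113) in No Strain.

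Pvalb (ENSMUSG00000005716, chr15:78191114-78206400, minus strand) encodes parvalbumin, a soluble calcium buffer of the fastest fibres. It measured 230, 237, 284, 202 and 141 CPM in TD, 38.1, 91.1, 73.9 and 58.9 CPM in Strain, and 129, 44 and 100 CPM in No Strain. Every patch library lay below every TD library. Pvalb fell by 1.74 (SE 0.333, adjusted p = 0.0113) in Strain and by 1.27 (SE 0.363, adjusted p = 0.0349) in No Strain on the log2 scale. The calcium store protein Casq1 fell in Strain by 1.62 (adjusted p = 0.0051). So did the release channel Ryr1 (−1.31, adjusted p = 0.0286), Trdn, which ties it to the store (−1.55, adjusted p = 0.0181), the junction protein Jph1 (−1.09, adjusted p = 0.0373) and Sypl2, a membrane protein of the triad (−1.30, adjusted p = 0.0246).

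The members that belong to the voltage sensor, Cacna1s and Cacng1, were not called. Cacna1s, its pore, had estimates of −1.16 (SE 0.373, adjusted p = 0.062) in Strain and −0.33 (SE 0.398, adjusted p = 0.600) in No Strain. Cacng1, its gamma subunit, measured 15.6, 18.6, 22.4, 23 and 8.86 CPM in TD, 9.44, 6.75, 31 and 17.1 CPM in Strain, and 28.2, 27.6 and 35.1 CPM in No Strain. It was the only member for which every No Strain library lay above every TD library (0.77, SE 0.423, adjusted p = 0.228), a separation seen for 14.3% of all genes. In Strain its estimate was −0.14 (SE 0.399, adjusted p = 0.856). It was 0.078 with the title letter as a covariate and −0.69 without Strain 3.

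Energy supply genes were called lower for 6 of 6 members in Strain and for 3 of 6 in No Strain, with medians of −1.74 and −1.24. Pgam2 (ENSMUSG00000020475, chr11:5801640-5803733, minus strand), the muscle phosphoglycerate mutase of glycolysis, had the smallest p of all members in both comparisons with TD. It measured 112, 83.9, 127, 88.4 and 65.7 CPM in TD, 26.7, 29.7, 28.9 and 20.9 CPM in Strain, and 40.3, 22.8 and 40.3 CPM in No Strain. Every patch library lay below the lowest TD library. The changes were −1.84 (SE 0.223, adjusted p = 0.00251) and −1.47 (SE 0.244, adjusted p = 0.00425).

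Eno3 (ENSMUSG00000060600, chr11:70657202-70662513, plus strand), muscle enolase, measured 365, 289, 478, 337 and 230 CPM in TD, 75.4, 117, 109 and 73 CPM in Strain, and 144, 84.6 and 149 CPM in No Strain. The separation was complete here too, with changes of −1.86 (SE 0.249, adjusted p = 0.00386) and −1.44 (SE 0.272, adjusted p = 0.00689). Pygm, the glycogen phosphorylase of muscle, showed the largest change of any member in both comparisons, from 353 ± 101 CPM in TD to 88 ± 22.7 CPM in Strain and 122 ± 40.4 CPM in No Strain. It fell by 2.0 (SE 0.266, adjusted p = 0.00386) and by 1.53 (SE 0.290, adjusted p = 0.00681) on the log2 scale.

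Ckm (ENSMUSG00000030399, chr7:19404776-19422841, plus strand), the creatine kinase that buffers ATP, measured 519, 484, 670, 440 and 305 CPM in TD, 129, 183, 171 and 142 CPM in Strain, and 275, 128 and 365 CPM in No Strain. Strain lay wholly below TD, and No Strain 3 exceeded TD 5. Ckm fell in Strain (−1.63, SE 0.292, adjusted p = 0.009), with an estimate of −0.92 in No Strain (SE 0.314, adjusted p = 0.0643). Mb, the oxygen store myoglobin, fell in Strain by 1.54 (adjusted p = 0.0218), and Ampd1, the AMP deaminase of muscle, by 1.29 (adjusted p = 0.0333).

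The remaining members were Klhl41, which stabilizes nebulin, and Smpx, a small protein of the sarcolemma and cytoskeleton. Klhl41 (ENSMUSG00000075307, chr2:69670120-69684230, plus strand) measured 160, 128, 244, 216 and 78 CPM in TD, 54.7, 52, 174 and 114 CPM in Strain, and 115, 125 and 292 CPM in No Strain. The groups overlapped, with estimates of −0.74 (SE 0.449, adjusted p = 0.299) and 0.10 (SE 0.480, adjusted p = 0.909). Smpx (ENSMUSG00000041476, chrX:157698910-157752591, plus strand) measured 33.6, 31.3, 38.5, 32.1 and 15.8 CPM in TD, 9.34, 11.5, 15.3 and 12 CPM in Strain, and 21, 17.6 and 38.8 CPM in No Strain. Strain lay below both other groups. Smpx fell against TD (−1.33, SE 0.286, adjusted p = 0.0161). It had the smallest p of the members against No Strain (−1.10, SE 0.315, unadjusted p = 0.00478, adjusted p = 0.872).

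The make-up of the transcripts also differed between libraries, which was seen when each member was set against the sum of the others. This measure and the 8 members shown were chosen after the values were seen, so no test is given. Of the 38 members, 24 overlapped between No Strain and TD on this measure. Lower in every No Strain library than in any TD library were Tnnt3, Tnni2, Atp2a1, Eno3, Pygm and Pgam2, and higher were Mylpf, Myl1, Actn3, Xirp2, Des, Cacng1, Klhl41 and Smpx. Between Strain and TD 33 overlapped, with Tnnt3 lower and Myl1, Neb, Actn3 and Des higher. The share of all genes that separate on this measure was not computed, so whether these counts are unusual is not known. On plain CPM, 12.5% of all genes tested lay wholly lower in No Strain than in TD, and 14.3% wholly higher. For Strain those shares were 7.15% and 7.47%. Per 1000 CPM of the other members, Pygm was 18.6 to 26 CPM in TD, 9.24 to 21.7 CPM in Strain and 10.1 to 13.6 CPM in No Strain. Des went the other way, with 34.6 to 40.7 CPM in TD, 49.4 to 85.4 CPM in Strain and 55.3 to 89.5 CPM in No Strain. Actn3 was 13.9 to 21.1 CPM in TD, 21.9 to 27.6 CPM in Strain and 27.7 to 37.8 CPM in No Strain.

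By class and per kilobase, energy supply genes made up 11.2% to 12.0% of the summed level in TD and 6.76% to 8.73% in No Strain. The share was 11.1%, 11.6%, 7.26% and 8.06% in Strain 1 to 4. On this share Strain 1 and 2, whose title numbers are 7 and 10, lay near TD. Strain 3 and 4, numbered 14 and 15, lay near No Strain. This split was picked after the values were seen. The TD libraries are numbered between 1 and 6 and the No Strain libraries 11 to 13. For the Z-disc class the shares were 8.16% to 9.68% in TD, 10.7% to 14.0% in Strain and 10.6% to 14.5% in No Strain. There Strain 1 and 2, at 11.4% and 10.7%, lay above TD like the other Strain libraries. The thick filament share was also above TD in Strain 1 and 2, at 24.3% in each against 21.3% to 23.3%. The meaning of the title numbers is not stated, and their part in these shares was not tested.

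**Figure D5:**
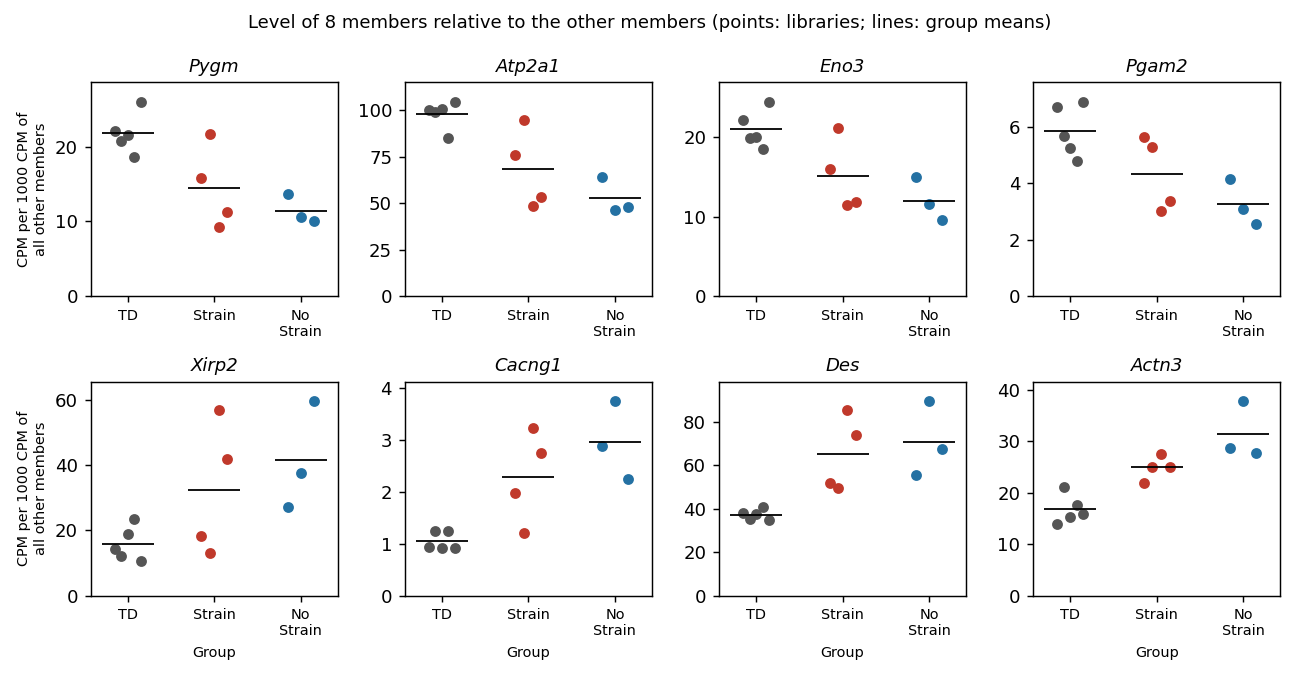
Level of 8 members in each library relative to the other members (vertical axes, CPM per 1000 CPM of all other members), with group means as lines. All No Strain libraries lie below TD for Pygm, Atp2a1, Eno3 and Pgam2 and above TD for Xirp2, Cacng1, Des and Actn3; all Strain libraries lie above TD for Des and Actn3 and overlap TD for the other 6.

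Genes of muscle outside the 39 were read from lists written with earlier results known. Among 40 other genes of mature muscle, 30 fell in Strain and 15 in No Strain, with medians of −1.35 and −0.74. Its most abundant genes were the tropomyosins Tpm1 (−0.80, adjusted p = 0.0196 in Strain) and Tpm2 (−1.07, adjusted p = 0.0229), which other cell types make as well. Among 12 slow fibre genes 11 estimates were below 0 in Strain, with a median of −0.92, and none was called (lowest adjusted p 0.0556, for Tnni1). In No Strain all 12 estimates were above 0, with a median of 1.08, and Tpm3 rose (0.45, adjusted p = 0.0239). The most abundant gene of the list, the calcium pump Atp2a2, had estimates of −0.04 in Strain (adjusted p = 0.824) and 0.20 in No Strain (adjusted p = 0.162). Atp2a2 and Tpm3, like Tpm1 and Tpm2, are not limited to muscle, so neither reads slow fibres alone. Their mean levels were 372 and 189 CPM, against 9.07 CPM for the slow heavy chain Myh7 and 26.6 CPM for Tnni1. No Strain 3 was the highest of the libraries for all 12 genes, and held 86.4 CPM of the slow heavy chain Myh7 where no other library exceeded 8.16 CPM.

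Developing and regenerating fibres make embryonic and neonatal myosins. Of 12 genes of such fibres, Myh8 and Chrna1 fell in Strain and none was called in No Strain, with medians of −0.74 and 0.24. Myh8, the neonatal heavy chain, was 120 ± 29.0 CPM in TD, 40.6 ± 6.32 CPM in Strain and 123 ± 34.8 CPM in No Strain (Strain against TD −1.56, adjusted p = 0.00462). Myh3, the embryonic chain, was 49 ± 19.3, 38.5 ± 20.2 and 124 ± 61.9 CPM (adjusted p = 0.626 in Strain and 0.0568 in No Strain). Neither was called between the patches (adjusted p = 0.402 and 0.872). Of 8 genes of synaptic muscle nuclei, 4 fell in Strain (Chrne, Ache, Dok7 and Rapsn) and 2 in No Strain (Ache and Lrp4). Ache, the acetylcholinesterase of the junction, fell in both (−1.38, adjusted p = 0.0247 and −1.33, adjusted p = 0.0311).

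Markers of other cell types moved beside the muscle genes. Of 10 adipocyte genes, 6 fell in Strain and 9 in No Strain, and their summed level was 1146 to 2637 CPM in TD, 797 to 1208 CPM in Strain and 581 to 880 CPM in No Strain. Lep, the fat hormone leptin, fell in both (−1.79, adjusted p = 0.0122 and −3.05, adjusted p = 0.00249), and Fabp4 in No Strain (−0.92, adjusted p = 0.0241). Their median log2 fold change in Strain against No Strain was 1.02, where that of the muscle genes was −0.73, and none was called. Of 12 neutrophil genes, 10 rose in Strain and 8 in No Strain, and of 10 endothelial genes 6 rose in each. Of 8 Schwann cell and nerve genes, all had estimates below 0 in both comparisons with TD (medians −0.54 and −0.73). Cdh19 fell in both, and Sox10 fell in No Strain. The summed level of this list was 261 to 432 CPM in TD, 199 to 309 CPM in Strain and 198 to 272 CPM in No Strain. None of the keratinocyte or fibroblast genes was called. Among 9 smooth muscle genes besides Des, Lmod1, Smtn and Synm fell in each comparison with TD, and Acta2 was not called (adjusted p = 0.588 and 0.645). Of 10 cardiac genes, Nppa, Nkx2-5 and Gata4 had totals of 1, 1 and 4 counts. The other 7 were tested, and the summed level of the list was 6.90 to 14.1 CPM in TD, 7.71 to 12.3 CPM in Strain and 8.80 to 30.6 CPM in No Strain. None was called in Strain, and Myh6 (3.49, adjusted p = 0.0463) and Mybpc3 (1.24, adjusted p = 0.0374) rose in No Strain. Myh6 was 17 CPM in No Strain 3 and at most 1.17 CPM in the other libraries. The most abundant cardiac genes were Hcn4 (5.22 ± 2.53 CPM in TD) and Tnni3 (2.45 ± 0.190 CPM in TD), and neither was called. The part of these cell types in the muscle result was not tested.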

How the data were processed

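The authors deposited a file of unnormalized read counts for each library, as the headers and whole numbers show, made from poly(A)-enriched RNA per the labels' protocols. The submitters' processing notes name bcl2fastq 2.17, FastQC, cutadapt, STAR, featureCounts, DESeq2 and the build GRCm38. The annotation release, the strand setting and the rule for reads matching several genes are not given in the sources used here. Gene IDs were named from GENCODE M21 (GRCm38), which matched 54165 of 54232, and coordinates and exon lengths come from it.

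Genes with enough counts (edgeR filterByExpr, minimum count 10, minimum total 15) numbered 18618. All 12 libraries entered 1 edgeR 4.0.16 quasi-likelihood fit (robust, TMM scaling, R 4.3.3), with Benjamini-Hochberg adjustment over all genes tested and a threshold of 0.05. A standard error (SE) is the log2 fold change divided by the square root of its F statistic. Replicates within groups differed by more than counting noise in all 19 pairs (chi-square per degree of freedom 8.69 to 67.1). Alternatives were DESeq2 1.42.0, its size factors, library totals, no low-count filter and only the compared groups. Others were limma-voom with a quality weight for each library (limma 3.58.1), the title letter as covariate, and leaving out each of the 12 libraries. The edgeR scripts were tested on simulated counts.

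The members and lists were chosen with earlier results of these data known. Values in every library are given for the 2 members per role with the highest length-scaled level and for the smallest p in each comparison. Those of Myh4, Xirp2 and Cacng1 were added after values were seen. Outside the members, the 2 genes with the highest mean CPM per list could be named, with defining markers near 0; others, such as Myh7 and Chrna1, were named after their values were seen.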

Additional observations from a re-analysis of the deposited data

Results flagged for a closer look

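Among 86 sets of values in groups of 4 or 5 libraries, 4 had a library set far from the others by Dixon's criterion, where chance gives about 4.3. Strain 2 was highest for Myh4 in its group, at 767 CPM against 221 CPM for the next library, a gap of 0.848 of the group's range. In the same library Myh4 made up 58.0% of the adult fast heavy chain, against 15.9% in the next Strain library, and Myh1 made up 38.96%, against 75.4%. These 3 values come from the same transcripts and are not independent. TD 3 was highest for Mybpc2 at 294 CPM, against 185 CPM in the next TD library, a gap of 0.738 of the range.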

How the results depend on the processing

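In Strain against TD, the 29 called members became 13 with no low-count filter and 13 with the title letter as covariate, and 12 (without Strain 2) to 32 (without Strain 3) when 1 library was left out. The values without Strain 1, Strain 4, TD 3 and TD 4 were 18, 16, 17 and 18. Over all genes, calls in Strain against TD also fell under these settings. They were 2349 in the main fit, 1527 with no low-count filter, 798 with the title letter and 882 without Strain 2. Without Strain 1, Strain 4, TD 3 and TD 4 they were 1656, 1860, 1301 and 1274. In No Strain against TD, the 7 calls became 12 with DESeq2 and 11 with limma-voom with quality weights. They became 5 (without No Strain 2) to 12 (without TD 5) with 1 library left out. Calls over all genes there were 3305 in the main fit, 4228 with DESeq2, 3288 with limma-voom and 2907 without TD 5. In Strain against No Strain the count was 0 in all 19 alternatives. The median of the members in that comparison ran from −0.97 to −0.38 with 1 library left out, from −1.64 to −1.23 in Strain against TD, and from −1.02 to −0.45 in No Strain against TD. The Strain against TD estimate of Xirp2 reversed to 0.014 without Strain 1 and 0.037 without Strain 2 (lowest −1.03, without Strain 3). That of Cacng1 reversed to 0.078 with the title letter, 0.049 without Strain 1 and 0.12 without Strain 2 (lowest −0.69, without Strain 3). The cause was not tested in any of these. No paired analysis was possible because replicate numbers only follow the order of deposit and title numbers are not shared between groups. Every TD library has a title number between 1 and 6, and every patch library one between 7 and 15. A difference from TD therefore cannot be told apart from a difference by title number. Groups of 3 to 5 libraries, and Tnnc2 with 57 counts in all, limit what could be detected.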

Other observations

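Several slow fibre genes were far higher in 1 library than in the rest. No Strain 3 held 86.4 CPM of Myh7, 40.8 CPM of Myl2, 83.3 CPM of Tnnt1 and 248 CPM of Csrp3, a LIM protein of striated muscle. These genes were picked after their values were seen. Others of the list were closer to the next library, such as Atp2a2 (464 CPM against 417 CPM in No Strain 1) and Myoz2 (65.9 CPM against 54.6 CPM in TD 3). No Strain 3 was also the highest of all 12 libraries for 6 of the 38 tested fast genes, among them Xirp2 at 883 CPM and Cacng1 at 35.1 CPM.

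Satellite cells are the stem cells of muscle. Of 9 tested genes of satellite cells and of myogenic factors, Myf5 and Megf10 fell in Strain, and 1 gene rose in each comparison with TD. Estimates were below 0 for 8 of the 9 in Strain and for 5 in No Strain. Myf5 was near the floor, with 110 counts in all, 0.608 ± 0.144 CPM in TD and 0.169 ± 0.058 CPM in Strain. Pax7, with 204 counts in all, was not called (−1.12, adjusted p = 0.0706 in Strain, and −1.18, adjusted p = 0.0709 in No Strain). The gene that rose was Vcam1 in both, an adhesion protein that endothelial cells also carry (1.05, adjusted p = 0.00726 in Strain, and 1.17, adjusted p = 0.00357 in No Strain). Myog, the myogenic factor of differentiating myoblasts, was 14 ± 3.82 CPM in TD, 9.48 ± 7.85 CPM in Strain and 18.8 ± 7.20 CPM in No Strain, and was not called.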
